A study of Homo sapiens with 12 samples.

Results

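The response of the human acute myeloid leukaemia line MV4-11 to AC220 was read from 6 of the 12 libraries of the series, chosen by their labels: 3 of cells exposed for 24 h to DMSO, the vehicle, and 3 of cells exposed for 24 h to 5 nM AC220. AC220 (quizartinib) is a small-molecule inhibitor of the receptor tyrosine kinase FLT3. MV4-11 is an established line that carries an internal tandem duplication of FLT3 and an MLL fusion, and both of its groups share these lesions. OCI-AML3, a line with a mutated NPM1 and no such duplication, went through both exposures in the other 6 libraries and served as the comparison. RNA was measured by 3′ mRNA sequencing. Each line was the only representative of its genotype, and separate cultures are not stated for the replicates, so a p-value here covers only variation among libraries, some or all of it possibly technical.

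A FLT3 receptor with an internal tandem duplication signals without its ligand, through the RAS and ERK cascade, the PI3K and AKT cascade and STAT5. ERK signalling is known to induce early response transcription factors of the EGR, ETV and AP-1 groups and these factors act on genes of cytokines, receptors and adhesion proteins. The account therefore runs from transcription factors to proteins of the cell surface, secreted factors, ion channels and ion transporters, and ends with genes that went from near 0 counts to a clear signal or back.

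Genes were placed in these 5 classes, and in 42 families within them, by gene symbol. The count table held 3566 class members, of which 1723 passed the filter on low counts and were tested, and 1843 were not tested, 822 of them without a count in any MV4-11 library. A gene that passed the filter only through the group where it was high had to differ, so the counts below describe the tested members and not all members. For the same reason the p-value of such a gene is no separate support for its change. Over all genes, 12392 were tested and 7228 were called (58.3%, edgeR's quasi-likelihood F test, Benjamini-Hochberg adjusted p under 0.05). Of these, 31.5% of the tested genes were higher and 26.9% were lower after AC220, 9.73% were at least 2-fold higher and 8.74% at least 2-fold lower, and the 3 libraries of both groups did not overlap in 62.4%. The median log2 fold change of all tested genes was 0.07. The balance of all calls depended on the libraries used: it was 3899 higher and 3329 lower here, 3431 and 3619 with the 6 MV4-11 libraries alone, and 3248 and 3447 without AC220 replicate 3. All levels are CPM (a gene's counts scaled to a fixed library total, after TMM), so they are shares of a library and not amounts of RNA per cell. Fewer cells that express a gene and less of its RNA per cell cannot be told apart in bulk RNA.

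MV4-11 libraries held 11419454 to 16918761 counts, and 3 counts corresponded to 0.174 to 0.279 CPM. Of 9 myelomonocytic markers all had counts, with a summed level of 516 to 546 CPM under DMSO and 883 to 940 CPM under AC220. PTPRC, CD33, LYZ, CSF1R, CEBPA, ITGAM and CD4 rose, and SPI1 (adjusted p = 0.263) and MPO (adjusted p = 0.593) did not pass the test. Defining erythroid, T cell, epithelial and fibroblast markers were at or near 0: HBA1, HBB, CD3E, EPCAM, KRT19 and COL3A1 had no counts, while NCAM1, listed with the T and NK cell markers, was at 127 ± 5.58 CPM in DMSO libraries and 84.7 ± 0.550 CPM in AC220 libraries (SD, n = 3 per group). AC220 replicate 1 differed more from the other libraries of its group (chi-square per degree of freedom 9.56 and 10.6) than those did from each other (4.24).

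Over the 5 classes together, rises outnumbered falls. Of the 1723 tested members, 654 rose (38.0%, against 31.5% of all genes) and 317 fell (18.4%, against 26.9%). Their median log2 fold change was 0.27. Surface proteins had the highest share of called members, 65.1%, against 58.3% over all genes, and transcription factors the lowest, 49.3%. Secreted factors stood at 61.2%, ion channels at 58.1% and ion transporters at 57.1%. Among genes tested with all libraries, 252 of 360 transcription factors called without AC220 replicate 1 rose and the rest fell. Counted in the same way, rises and falls without that library were 187 and 93 for surface proteins and 97 and 60 for secreted factors. They were 53 and 26 for ion channels, and 26 and 22 for ion transporters. Over the genes that passed the filter in each fit, ion transporters had more falls than rises with the 6 MV4-11 libraries alone (26 and 23). The same held without AC220 replicate 3 (25 and 24) and without DMSO replicate 1 (23 and 22). These shares are descriptions, and no test of one class against another was made.

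**Figure D1:**
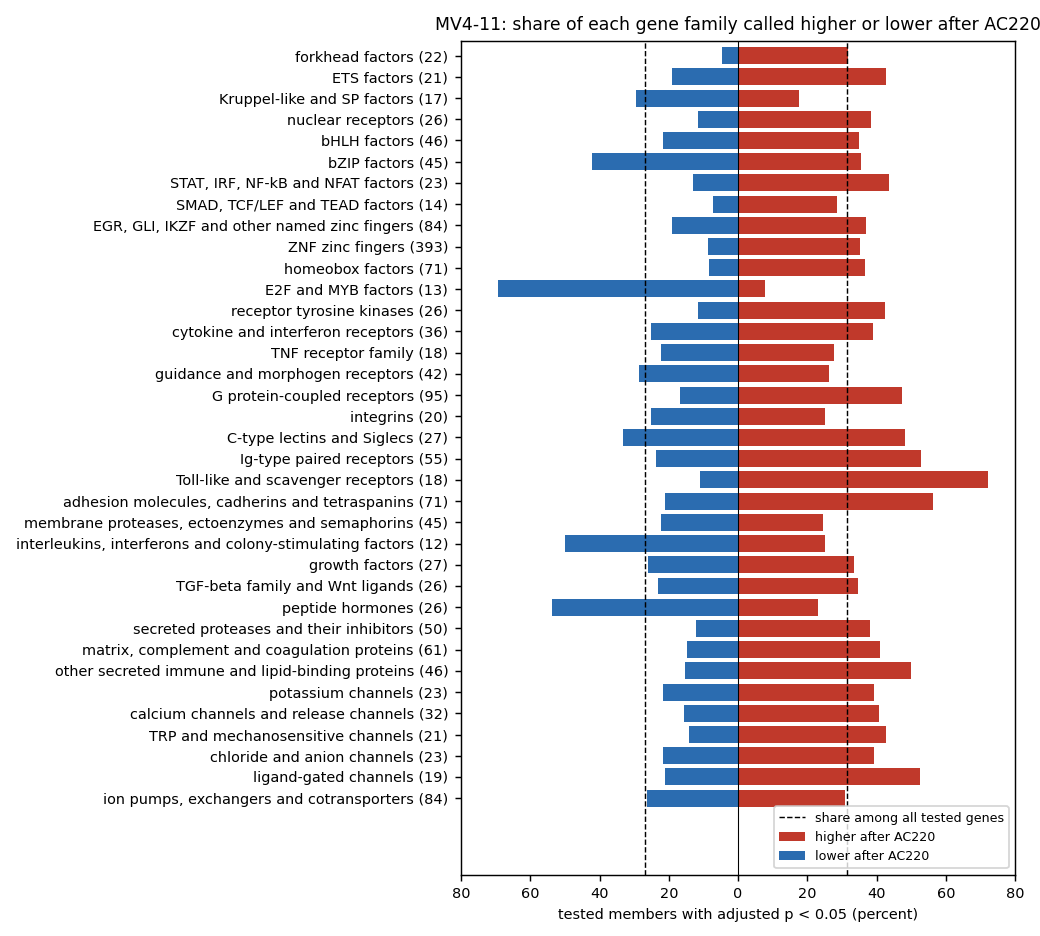
Percent of the tested members of each gene family that were called higher (red, right) or lower (blue, left) after AC220 in MV4-11, for the 36 families with at least 12 tested members (number tested in brackets); dashed lines mark the shares over all 12392 tested genes, 31.5% and 26.9%. E2F and MYB factors, peptide hormones, interleukins and bZIP factors extend to the left, and Toll-like and scavenger receptors and adhesion molecules to the right.

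Transcription factors read out signalling at DNA, and the 6 with the largest falls in MV4-11 included EGR1, EGR3, ETV4 and ETV5, which are known early targets of growth factor signalling. Of 787 tested factors, 275 rose (34.9%) and 113 fell (14.4%), the latter below the 26.9% of all genes. At least 2-fold changes numbered 84 up and 54 down (10.7% and 6.86%, against 9.73% and 8.74% of all genes). Numbered ZNF zinc fingers, mostly repressors with little-known targets, numbered 393 of the tested factors: 138 rose (35.1%, against 31.5% of all genes) and 34 fell (8.65%, against 26.9%), and they held 35 of the 84 rises and 9 of the 54 falls of at least 2-fold.

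Among factors that fell, EGR1, a zinc finger factor induced within minutes of mitogen exposure, was at 41.9, 42.3 and 51.1 CPM in the DMSO libraries and at 2.05, 2.79 and 2.36 CPM in the AC220 libraries. All AC220 libraries lay far below all DMSO libraries, an 18.8-fold difference (log2 fold change -4.24, SE 0.236, adjusted p = 6.66e-10). EGR3, its close relative, had 4.93, 5.97 and 6.24 CPM under DMSO, and under AC220 only the third library held counts of it, at 0.182 CPM. The ratio of its summed counts was 99.2, with a 95% counting interval of 27.2 to 824.

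The PEA3 group of ETS factors, which act downstream of ERK, fell as well. ETV5 was at 44.4, 40.4 and 40.3 CPM under DMSO and at 3.27, 1.40 and 3.63 CPM in the AC220 libraries (15.1-fold lower, log2 fold change -3.89, SE 0.178, adjusted p = 3.36e-17). ETV4, a scarcer member, went from 2.73, 2.18 and 2.57 CPM to 0.228, 0.186 and 0 CPM (log2 fold change -4.04, SE 0.465, adjusted p = 1.39e-08, and -4.63 without AC220 replicate 1). In contrast, ETS2, another ETS factor, rose from 52.1, 53.4 and 56.2 CPM to 214, 212 and 226 CPM, 4.03-fold (SE of the log2 fold change 0.0763, adjusted p = 2.17e-19). The ETS family thus moved in both directions. Of 21 tested members 9 rose, a share above the 31.5% of all genes, and 4 fell, a share below the 26.9%. All 4 that fell did so at least 4-fold, against 449 of the 3329 falls over all genes.

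Leucine zipper (bZIP) factors, which pair with each other to bind DNA, moved in both directions: of 45 tested, 16 rose (35.6%, against 31.5% of all genes) and 19 fell (42.2%, against 26.9%). BATF3, which pairs with JUN and is needed for a dendritic cell lineage, fell from 19.5, 18.7 and 16.5 CPM to 0.152, 0.559 and 0.182 CPM, 61.4-fold (log2 fold change -5.95, SE 0.263, adjusted p = 1.84e-17). ATF3, a stress-induced repressor, fell from 19.9, 18.7 and 23.4 CPM to 0.608, 1.12 and 3.54 CPM, with a wide spread between the AC220 libraries (log2 fold change -3.59, SE 0.310, adjusted p = 1.32e-08). DDIT3, also called CHOP, had 136.8, 139 and 142 CPM under DMSO and 25.4, 25.97 and 29.9 CPM under AC220. NFE2, a bZIP factor of megakaryocyte and erythroid genes, went the other way, from 6.03, 6.74 and 6.11 CPM to 35.7, 41.0 and 36.1 CPM (5.97-fold higher, log2 fold change 2.58, SE 0.137, adjusted p = 6.31e-16). Without AC220 replicate 1, 10 bZIP factors rose and 19 fell. The log2 fold change of BATF3 was -6.71 without AC220 replicate 2, which held most of its remaining counts, and that of ATF3 was -4.66 without AC220 replicate 3.

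Factors of the cell cycle made up the family with the highest share of falls. Among 13 tested E2F and MYB factors 9 fell (69.2%, against 26.9% of all genes) and 1 rose (7.69%, against 31.5%). MYBL2, which activates late cell cycle genes, had 150.3, 141 and 139 CPM under DMSO and 12.9, 18.0 and 13.2 CPM in the AC220 libraries (log2 fold change -3.30, SE 0.106, adjusted p = 1.56e-19). FOXM1, its forkhead partner, went from 45.2, 43.6 and 38.6 CPM to 7.22, 7.17 and 6.08 CPM. FOXM1 was the only one of 22 tested forkhead factors that fell (4.55%, against 26.9% of all genes). A further 7 of them rose (31.8%, against 31.5%). MXD4, a bHLH factor that competes with MYC for its partner MAX, rose from 17.2, 14.5 and 17.2 CPM to 59.8, 82.3 and 63.3 CPM (log2 fold change 2.07, SE 0.116, adjusted p = 2.37e-15).

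Factors that rose most started from low levels. ZNF467 had 0.0580, 0.128 and 0.386 CPM under DMSO and 2.20, 1.86 and 4.09 CPM under AC220, 14.2-fold higher. ZBTB20, a repressor of the BTB zinc finger group, had 0.174, 0.706 and 0.193 CPM and then 2.96, 3.07 and 4.18 CPM. NPAS1, a bHLH-PAS factor, went from 0.870, 0.321 and 0.450 CPM to 2.51, 4.56 and 4.36 CPM. At such levels a library holds few counts, and their standard errors (0.521, 0.486 and 0.408 on the log2 scale) were larger than those of abundant factors. The log2 fold change of ZNF467 was 3.79, and 4.75 without DMSO replicate 3, and that of ZBTB20 was 3.23, and 4.14 without DMSO replicate 2. PRDM1, also called BLIMP1, a repressor that drives terminal differentiation of B cells and of some myeloid cells, rose from 1.45, 0.770 and 0.707 CPM to 6.68, 4.19 and 6.63 CPM (log2 fold change 2.56, SE 0.333, adjusted p = 1.36e-07). ZNF22 rose 6.44-fold, from 1.39, 1.86 and 1.86 CPM to 12.5, 10.8 and 9.72 CPM.

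Other factors rose from higher levels by smaller folds, with little spread between libraries. TEAD2, the DNA-binding partner of the Hippo effector YAP, rose from 76.3, 78.7 and 74.8 CPM to 262, 344 and 309.5 CPM (log2 fold change 1.99, SE 0.0860, adjusted p = 7.54e-18). IRX3, a homeobox factor, rose from 328, 332 and 305 CPM to 861, 1071 and 886 CPM, and SOX4 from 183, 187 and 186 CPM to 436, 454 and 488 CPM. RUNX2, the runt factor of bone formation, rose 2.23-fold, STAT2, which carries interferon signals, 2.42-fold, KLF10, a factor induced by TGF-beta, 3.06-fold, and ZBTB33, which binds methylated DNA, 1.89-fold. NR3C1, the glucocorticoid receptor, fell 1.98-fold, from 151, 145 and 159 CPM to 81.4, 70.9 and 78.2 CPM. Nuclear receptors as a family held 10 rises and 3 falls of 26 tested (38.5% and 11.5%, against 31.5% and 26.9% of all genes).

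**Figure D2:**
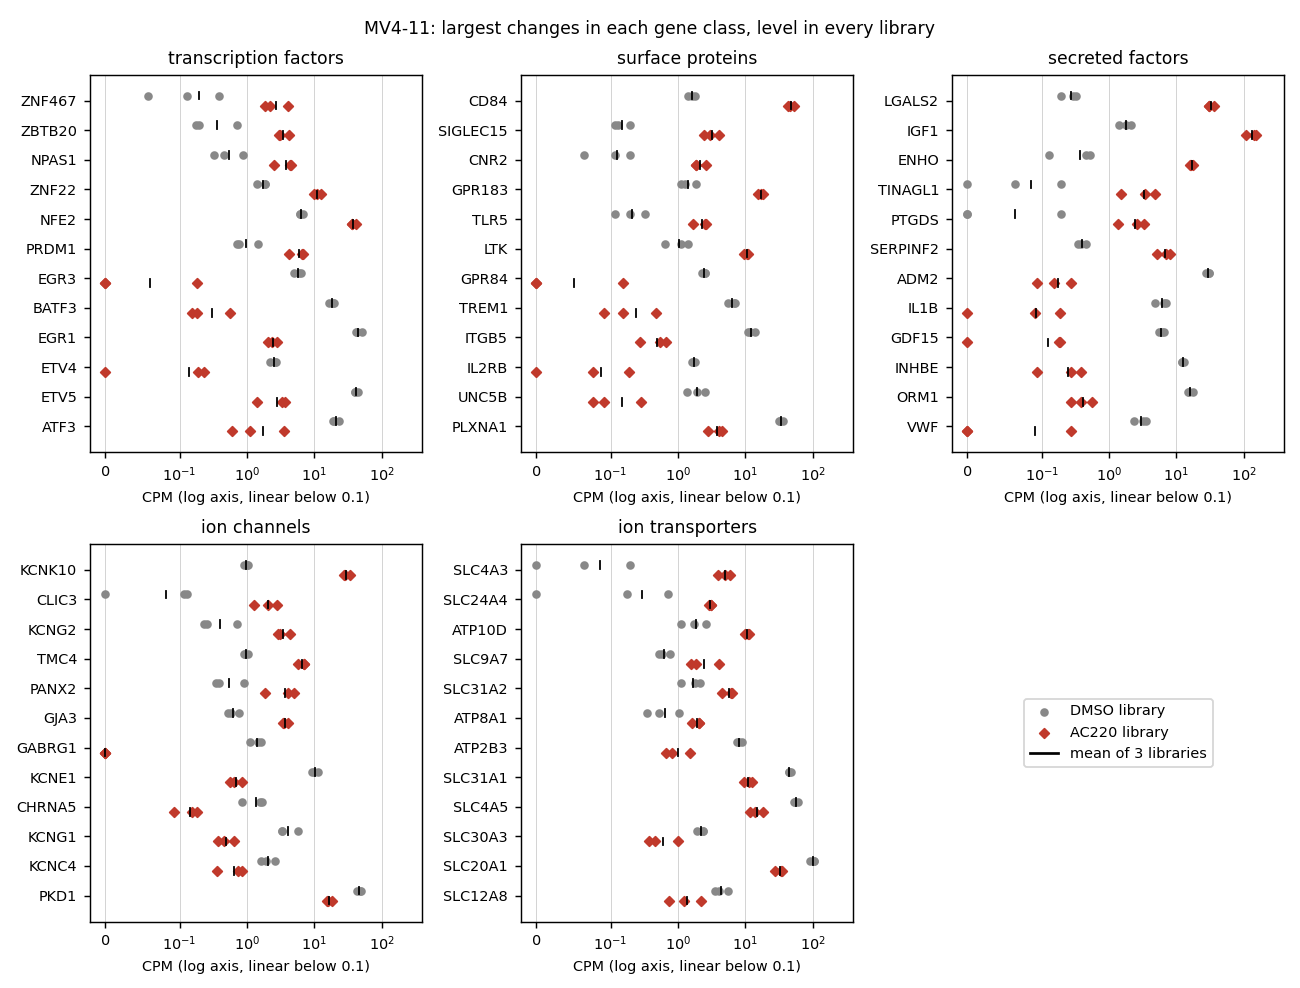
CPM of the most changed genes of each class, up to 6 in each direction, in each MV4-11 library (log axis, linear below 0.1 CPM): grey circles are DMSO libraries, red diamonds AC220 libraries and black bars means of 3 libraries. The genes were chosen among those whose groups do not overlap; LGALS2 and IGF1 have the widest gaps upward and ADM2 downward.

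At the cell surface, CD84, CD36, CXCR4 and CSF1R rose, while the integrin chains ITGB2 and ITGB5 and the receptors TREM1 and IL17RA fell. Of 453 tested surface proteins, 197 rose (43.5%, against 31.5% of all genes) and 98 fell (21.6%, against 26.9%). Rises and falls of at least 2-fold numbered 109 and 57 (24.1% and 12.6%, against 9.73% and 8.74% of all genes). Toll-like and scavenger receptors, which bind microbial molecules and modified lipoproteins, had the highest share of rises. In this family 13 of 18 rose (72.2%) and 2 fell (11.1%), and 13 and 0 without AC220 replicate 1. Adhesion molecules, cadherins and tetraspanins followed with 40 rises and 15 falls of 71 tested (56.3% and 21.1%). Immunoglobulin-type paired receptors had 29 and 13 of 55 (52.7% and 23.6%). Transcripts of clustered protocadherins share their last exons, so 3′ counts cannot separate their members.

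CD84, a self-binding receptor of the SLAM family, rose most among the surface proteins. It was at 1.62, 1.41 and 1.80 CPM in the DMSO libraries and at 43.0, 45.4 and 52.1 CPM in the AC220 libraries, 29.1-fold higher (log2 fold change 4.85, SE 0.191, adjusted p = 5.13e-19). CD36, a scavenger receptor for oxidised lipoprotein and fatty acids, rose from 12.4, 9.50 and 13.4 CPM to 87.6, 75.6 and 72.7 CPM, 6.69-fold (log2 fold change 2.74, SE 0.107, adjusted p = 4.05e-19). TLR5, the receptor for flagellin, rose from 0.116, 0.321 and 0.193 CPM to 1.67, 2.51 and 2.63 CPM (log2 fold change 3.39, SE 0.545, adjusted p = 4.47e-06). SIGLEC15, a sialic acid-binding receptor known from osteoclasts, rose from 0.116, 0.192 and 0.129 CPM to 2.43, 4.10 and 3.00 CPM. TLR5 and SIGLEC15 were near the level of 3 counts per library under DMSO, so the size of their folds rests on few counts. CD37, a tetraspanin of leukocytes, reached higher levels, with 129, 140.3 and 131 CPM before and 455, 566 and 543 CPM after.

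Among chemoattractant and growth factor receptors, CXCR4, GPR183 and CSF1R rose. CXCR4, which holds haematopoietic cells in the marrow through CXCL12, rose from 27.7, 29.1 and 24.3 CPM to 139, 137.1 and 143 CPM, 5.17-fold (log2 fold change 2.37, SE 0.0799, adjusted p = 1.47e-20). GPR183, which directs cells along oxysterol gradients, went from 1.10, 1.28 and 1.86 CPM to 18.2, 15.3 and 17.3 CPM, 11.9-fold. CNR2, the cannabinoid receptor of immune cells, had 0.116, 0.192 and 0.0643 CPM and then 1.82, 2.61 and 1.82 CPM. Among 95 tested G protein-coupled receptors 45 rose (47.4%) and 16 fell (16.8%), against 31.5% and 26.9% of all genes. CSF1R, the receptor for macrophage colony-stimulating factor, rose from 12.6, 11.4 and 13.1 CPM to 48.4, 62.9 and 62.8 CPM (log2 fold change 2.23, SE 0.126, adjusted p = 2.96e-15). LTK, a receptor tyrosine kinase related to ALK, rose from 1.39, 0.642 and 1.09 CPM to 11.1, 9.68 and 10.6 CPM. Of 26 tested receptor tyrosine kinases 11 rose (42.3%, against 31.5% of all genes) and 3 fell (11.5%, against 26.9%). SELPLG, the P-selectin ligand, rose 3.16-fold, and TNFRSF1B, the second TNF receptor, 1.56-fold.

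Integrin chains join cells to matrix and to each other. ITGB2, the beta chain shared by leukocyte integrins, fell from 519.5, 502 and 513 CPM to 106, 103 and 95.4 CPM, 5.04-fold (log2 fold change -2.33, SE 0.0764, adjusted p = 7.45e-21). ITGB5, a beta chain that binds vitronectin, fell from 11.9, 10.8 and 13.8 CPM to 0.532, 0.652 and 0.272 CPM, 25.1-fold (log2 fold change -4.62, SE 0.269, adjusted p = 6.03e-15). Over the family there were 5 rises and 5 falls of 20 tested, both shares below those of all genes (31.5% and 26.9%). ITGAM, which pairs with ITGB2, was among the myelomonocytic markers that rose, with 2.52 ± 0.527 CPM in DMSO libraries and 7.05 ± 0.930 CPM in AC220 libraries (SD, n = 3 per group).

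Receptors of inflammation that fell included TREM1, which amplifies Toll-like receptor signals. It fell from 5.45, 6.99 and 6.82 CPM to 0.152, 0.465 and 0.0908 CPM (log2 fold change -4.75, SE 0.405, adjusted p = 3.24e-11). GPR84, a receptor for medium-chain fatty acids, had 2.55, 2.50 and 2.25 CPM under DMSO, and under AC220 replicate 1 alone held counts of it, at 0.152 CPM. The ratio of its summed counts was 42.6, with a 95% counting interval of 11.5 to 356. IL17RA, a chain of the interleukin-17 receptor, fell from 249, 229 and 238 CPM to 72.2, 81.2 and 80.4 CPM. IL2RB, the beta chain of the interleukin-2 and interleukin-15 receptors, had 1.62, 1.80 and 1.67 CPM and then 0.0760, 0.186 and 0 CPM, a ratio of summed counts of 19.7 with a counting interval of 6.52 to 97.6. Guidance and morphogen receptors held 11 rises and 12 falls of 42 tested (26.2% and 28.6%, against 31.5% and 26.9% of all genes). PLXNA1, a semaphorin receptor, fell from 31.4, 32.5 and 35.9 CPM to 2.81, 4.47 and 3.996 CPM, and UNC5B, a netrin receptor, from 2.55, 1.35 and 1.93 CPM to 0.0760, 0.279 and 0.0908 CPM. ECE1, the enzyme that activates endothelin, fell 5.98-fold. Without AC220 replicate 2 the log2 fold change of TREM1 was -5.59, and that of UNC5B went from -3.69 to -4.42.

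Among secreted factors, the cytokines TNF, IL1B and CCL2 and the peptides ADM2 and GDF15 fell, while IGF1, LGALS2 and ENHO rose from low levels. Of 263 tested, 101 rose (38.4%, against 31.5% of all genes) and 60 fell (22.8%, against 26.9%), with 66 rises and 45 falls of at least 2-fold (25.1% and 17.1%, against 9.73% and 8.74%). Of 26 tested peptide hormones 6 rose and 14 fell (23.1% and 53.8%, against 31.5% and 26.9% of all genes). Of 12 tested interleukins, interferons and colony-stimulating factors 3 rose, a share below that of all genes, and 6 fell, a share above it. Of 9 tested TNF family ligands 6 rose and 2 fell (66.7% and 22.2%). Most members of these families were not tested, 66 peptide hormones and 66 interleukins among them.

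TNF, the inflammatory cytokine that names its family, was among the 2 ligands there that fell. It was at 55.4, 54.0 and 52.2 CPM under DMSO and at 2.20, 1.02 and 2.63 CPM under AC220, 27.6-fold lower (log2 fold change -4.76, SE 0.166, adjusted p = 2.93e-20). IL1B, the secreted product of inflammasome activation, had 4.81, 6.61 and 6.88 CPM under DMSO and 0, 0.186 and 0.0908 CPM under AC220, 3 counts in all. The ratio of its summed counts was 70.5, with a 95% counting interval of 23.9 to 344. CCL2, the monocyte attractant, fell from 3.19, 3.98 and 4.24 CPM to 0.532, 0 and 0.0908 CPM (log2 fold change -4.01, SE 0.531, adjusted p = 1.82e-07). Most of the remaining CCL2 signal was in AC220 replicate 1, and the log2 fold change became -6.11 in its absence. MIF, a cytokine made at high levels by many cells, fell only 2.13-fold, from 469.5, 465 and 450.3 CPM to 219, 212 and 220.32 CPM.

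ADM2, a peptide of the calcitonin family, had the largest fall of the secreted class. It was at 30.2, 30.2 and 27.8 CPM under DMSO and at 0.152, 0.0931 and 0.272 CPM under AC220, 170.4-fold lower (log2 fold change -7.34, SE 0.227, adjusted p = 2.25e-21). GDF15, a distant TGF-beta relative released under cell stress, fell from 5.51, 6.03 and 6.43 CPM to 0, 0.186 and 0.182 CPM, a log2 fold change of -5.59, and -4.96 without AC220 replicate 1. INHBE, a chain of activin E, fell from 12.2, 11.9 and 12.7 CPM to 0.380, 0.0931 and 0.272 CPM (log2 fold change -5.53, SE 0.346, adjusted p = 3.23e-14). Each of these genes is a known target of the amino acid stress response. INHBA, the chain of activin A, fell 2.43-fold, from 248, 269 and 269 CPM to 109.9, 108.1 and 105 CPM. ORM1, an acute-phase plasma protein, fell from 14.9, 17.7 and 15.6 CPM to 0.380, 0.559 and 0.272 CPM. ORM1 has a near-identical neighbour, ORM2, and the division of reads between them is not given in the sources used here. VWF, the coagulation factor carrier of endothelium and platelets, had 2.32, 3.53 and 3.22 CPM and then 0, 0 and 0.272 CPM.

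IGF1, a growth factor that acts through its own receptor tyrosine kinase, rose from 2.09, 1.80 and 1.41 CPM to 139, 106.96 and 153 CPM. All AC220 libraries lay far above all DMSO libraries, a 75.4-fold rise (log2 fold change 6.22, SE 0.165, adjusted p = 2.03e-21). IGFBP2, a binding protein that restrains IGF, fell from 471, 471 and 427 CPM to 55.1, 70.6 and 57.0 CPM, 7.50-fold (log2 fold change -2.91, SE 0.0829, adjusted p = 4.02e-22). The ligand and its binding protein therefore changed in opposite directions, and AC220 and DMSO libraries did not overlap for either.

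LGALS2, a galectin, a lectin that binds sugar chains, rose most of the secreted class. It was at 0.290, 0.321 and 0.193 CPM under DMSO and at 30.6, 30.7 and 36.4 CPM under AC220, 122-fold higher (log2 fold change 6.87, SE 0.265, adjusted p = 2.99e-19). ENHO, which encodes the metabolic peptide adropin, rose from 0.522, 0.128 and 0.450 CPM to 15.7, 16.7 and 17.9 CPM (log2 fold change 5.46, SE 0.328, adjusted p = 4.91e-14). TINAGL1, a matrix protein, rose from 0, 0.0642 and 0.193 CPM to 1.52, 3.44 and 4.81 CPM, and SERPINF2, the inhibitor of plasmin, from 0.348, 0.385 and 0.450 CPM to 5.09, 7.91 and 7.08 CPM. CFD, the complement protease adipsin, rose from 239.9, 248 and 242 CPM to 774, 815 and 799.7 CPM. CST3, a secreted inhibitor of cathepsins, rose from 72.3, 60.4 and 63.6 CPM to 317, 321 and 363 CPM. The log2 fold change of TINAGL1 went from 5.13 to 6.34 without DMSO replicate 3.

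Ion channels, which are usually described in excitable cells, were mostly scarce in MV4-11, and TRPM4, KCNK10 and KCNE3 rose while KCNE1 and PKD1 fell. Of 368 channel genes 136 were tested; 55 rose (40.4%, against 31.5% of all genes) and 24 fell (17.6%, against 26.9%), with 33 rises and 10 falls of at least 2-fold (24.3% and 7.35%, against 9.73% and 8.74%). TRPM4, a calcium-activated channel that lets sodium in, rose from 46.7, 53.4 and 51.3 CPM to 197, 246 and 209 CPM (4.31-fold, log2 fold change 2.11, SE 0.0855, adjusted p = 1.01e-18). Of 21 tested TRP and mechanosensitive channels 9 rose (42.9%) and 3 fell (14.3%). PKD1, the polycystin that forms a complex with a TRP-type channel, fell from 42.2, 49.2 and 47.9 CPM to 15.6, 15.8 and 18.4 CPM (log2 fold change -1.48, SE 0.107, adjusted p = 7.43e-13). PKD1 has close pseudogene copies, and how reads of such copies were counted is not given in the sources used here.

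Potassium channel genes held both strong rises and strong falls. KCNK10, a background potassium channel opened by lipids and stretch, rose from 0.986, 0.898 and 1.03 CPM to 28.5, 33.8 and 27.5 CPM, 30.8-fold (log2 fold change 4.93, SE 0.290, adjusted p = 1.41e-12). KCNE3 and KCNE1 encode small accessory subunits of voltage-gated channels and moved apart: KCNE3 from 10.2, 10.7 and 8.49 CPM to 35.9, 28.7 and 30.7 CPM, and KCNE1 from 9.16, 9.82 and 11.4 CPM to 0.836, 0.559 and 0.636 CPM. The modifier subunits KCNG2 and KCNG1 did so too, KCNG2 from 0.232, 0.257 and 0.707 CPM to 2.89, 3.07 and 4.36 CPM and KCNG1 from 3.31, 5.71 and 3.34 CPM to 0.456, 0.372 and 0.636 CPM. KCNC4, a voltage-gated potassium channel, fell 3.15-fold. In all, 9 of 23 tested potassium channel genes rose (39.1%) and 5 fell (21.7%), against 31.5% and 26.9% of all genes. Without DMSO replicate 3 the log2 fold change of KCNG2 went from 3.09 to 3.76.

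Ligand-gated and large-pore channels were scarce. GABRG1, a subunit of the GABA-A receptor, had 1.10, 1.60 and 1.48 CPM under DMSO and no counts under AC220, while GABRA4, an alpha subunit, rose from 2.61, 2.50 and 2.19 CPM to 12.1, 8.84 and 9.90 CPM. CHRNA5, a nicotinic receptor subunit, fell from 1.57, 0.834 and 1.67 CPM to 0.152, 0.0931 and 0.182 CPM. Of 10 tested gap junction, pannexin and aquaporin genes 4 rose (40.0%, against 31.5% of all genes) and none fell by this test (against 26.9%). When AC220 replicate 1 was left out, 2 were called lower. GJA3, a lens connexin, rose 5.85-fold, PANX2, a pannexin, 6.66-fold, TMC4, a chloride channel of the TMC group, 6.86-fold, and CLIC3, a chloride intracellular channel protein, 25.2-fold from 0.0815 ± 0.0709 CPM. SCNN1D, the delta subunit of the epithelial sodium channel, rose from 1.45, 0.834 and 0.579 CPM to 3.95, 3.35 and 7.81 CPM, and ANO8, of the anoctamin group, rose 2.33-fold.

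Ion transporters were balanced. Of 84 tested, 26 rose (31.0%) and 22 fell (26.2%), close to the shares of all genes. In each direction 12 changed by at least 2-fold (14.3%, against 9.73% of all genes up and 8.74% down). Copper carriers moved apart: SLC31A1, the high-affinity importer of copper, fell from 46.9, 44.3 and 44.0 CPM to 11.2, 9.50 and 12.4 CPM (log2 fold change -2.02, SE 0.102, adjusted p = 1.71e-16), and SLC31A2, a related copper transporter of endosomes, rose from 2.15, 1.80 and 1.09 CPM to 4.48, 6.05 and 6.36 CPM (log2 fold change 1.73, SE 0.285, adjusted p = 6.52e-06). SLC20A1, a phosphate importer, fell from 104, 91.6 and 104 CPM to 34.03, 27.2 and 35.5 CPM. Bicarbonate carriers also differed, with SLC4A3 rising from 0, 0.192 and 0.0643 CPM to 3.95, 4.93 and 5.81 CPM and SLC4A5 falling from 53.2, 54.5 and 60.3 CPM to 18.2, 13.9 and 11.8 CPM. For calcium, SLC24A4, an exchanger driven by sodium and potassium, rose 10.3-fold and ATP2B3, a plasma membrane pump, fell 8.13-fold. ATP10D and ATP8A1, which flip lipids, rose 5.86-fold and 3.03-fold, and SLC9A7, a sodium-proton exchanger of the Golgi, 3.97-fold. SLC30A3, a zinc carrier, and SLC12A8, which is related to chloride cotransporters, fell 3.64-fold and 3.15-fold. Single libraries moved some of these values: the log2 fold change of SLC4A3 was 5.73, and 5.14 without DMSO replicate 1 and 6.93 without DMSO replicate 2. That of SLC24A4 went from 3.34 to 4.92 without DMSO replicate 2, and that of SLC30A3 from -1.79 to -2.38 without AC220 replicate 1.

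Some genes went between near 0 counts and a clear signal. A gene was taken as switched when the 3 libraries of a group held at most 3 counts together and each library of the other held at least 10. These values chose the genes, so they are given as a description with no test. AC220 had 9 such genes switched on and 28 switched off. Of the 9 that were switched on, 3 belonged to the classes above, and each had at most 3 counts over the 6 OCI-AML3 libraries. Of the 28 that were switched off, 14 belonged to the classes and 9 had at most 3 counts in OCI-AML3.

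Genes switched on by AC220 were of mixed function and low level. ST8SIA6, a sialyltransferase, had 1, 1 and 0 counts under DMSO and 34, 21 and 30 under AC220, a ratio of 58.9 after scaling with a 95% counting interval of 15.8 to 494. NLRP4, of the NOD-like receptor family, had no counts under DMSO and 21, 30 and 22 under AC220, and was at least 33.7-fold higher, taking 3 counts over the DMSO group as the floor. GFRA2, a co-receptor for neurturin, had no counts under DMSO and 21, 15 and 18 under AC220, at least 24.9-fold higher.

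PTGDS, a prostaglandin D synthase that is also a lipid carrier, had 0, 3 and 0 counts under DMSO and 34, 35 and 15 under AC220, a ratio of 38.8 (12.8 to 192). TNFRSF8, also called CD30, a TNF receptor known from activated lymphocytes, had 0, 2 and 1 counts and then 28, 11 and 15. TMEM176A, a membrane protein, had 0, 2 and 0 counts and then 15, 29 and 20. The netrin relatives NTNG1 and NTN5 went from 0, 1 and 0 and from 1, 1 and 1 counts to 11, 24 and 18 and to 14, 19 and 11. In these genes the lowest AC220 library held 11 to 15 counts, against the threshold of 10, and 2 genes were switched on when 20 counts were required in each AC220 library.

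Genes switched off by AC220 started from higher counts and included cytokines, matrix proteins and early response factors. IL1B, EGR3, VWF and GPR84, described above, were among them. GDAP1L1, a relative of a mitochondrial fission factor, fell from 115, 86 and 94 counts to 0 in every AC220 library, at least 71.0-fold lower. DCSTAMP, a membrane protein needed for the fusion of osteoclasts and dendritic cells, fell from 46, 63 and 67 counts to none, at least 42.3-fold lower. XIRP1, an actin-binding protein of striated muscle, fell from 61, 49 and 54 counts to none, at least 39.5-fold lower.

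NUPR1, a small stress-induced chromatin protein, fell from 61, 78 and 79 counts to 1, 0 and 1, a ratio of 78.7 with a counting interval of 21.5 to 654. SPP1, the matrix cytokine osteopontin, fell from 43, 48 and 45 counts to 3, 0 and 0, all 3 of them in AC220 replicate 1, a ratio of 32.7 (11.0 to 161). AKR1C2, an aldo-keto reductase of steroids, fell from 43, 52 and 54 counts to none, at least 35.8-fold lower, and its near-identical relative AKR1C1 was switched off as well, so that reads may be divided between them. Others switched off were ADM, the hormone adrenomedullin, EGR2 and ADGRG3, which were not tested, and ANGPT1, RGS1, HIVEP2 and SCN4A. CKAP4, a membrane protein of the endoplasmic reticulum, had 43, 44 and 30 counts under DMSO in MV4-11 and 1 count under AC220, but 15952 and 16162 counts over the DMSO and the AC220 libraries of OCI-AML3. These last genes were named after their values were seen.

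At the edge of the threshold, only protein-coding genes were counted. Just inside it were 3 genes switched on and 9 switched off. They had exactly 3 counts in the low group or 10 in the lowest library of the other. A further 8 and 7 lay just outside it. TNFRSF8 and NTN5 were inside with 3 counts under DMSO and at least 11 in each AC220 library. SLC4A3, TINAGL1 and CLIC3 were outside with 4 counts under DMSO and at least 52, 20 and 17 in each AC220 library. OCSTAMP, a membrane protein that acts with DCSTAMP in the fusion of osteoclasts, was outside by 1 count, with at least 969 counts in each DMSO library and 4 in the AC220 libraries together. GDF15 had at least 94 counts in each DMSO library and 4 under AC220.

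**Figure D3:**
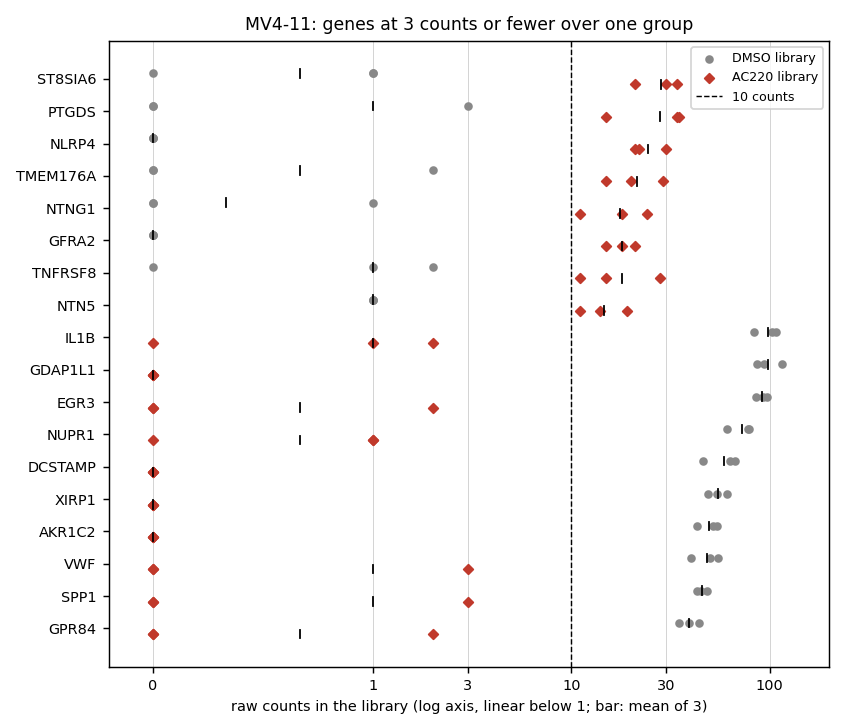
Raw counts of the 18 named switched genes in each MV4-11 library (log axis, linear below 1; bars are means of 3): grey circles are DMSO libraries, red diamonds AC220 libraries, and the dashed line is the 10-count requirement. The upper 8 genes were switched on, at 11 to 35 counts, and the lower 10 switched off, from 35 to 115 counts.

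Promoters of the named switched genes were searched for motifs of factors described above. RefSeq promoters of build GRCh38.p14 (250 bases before the start and 50 after it) were found for 11 of the 18 genes, and 8 motifs were searched on both strands: AP-1 (TGACTCA), CRE (TGACGTCA), the DDIT3 and ATF type (TGATGNAA), ETS (CCGGAAGT), EGR (GCGTGGGCG), the E-box (CACGTG), forkhead (GTAAACA) and RUNX (TGTGGTT). Of the 11 promoters, 7 held none of them. AP-1 motifs, bound by FOS, JUN and BATF3, occurred in NLRP4, TNFRSF8 and XIRP1. Over all switched genes with a promoter, 2 of 6 switched on and 1 of 17 switched off (5.88%) held one. The share was 4.92% of all 27305 promoters and 3.02% of the 9877 promoters of tested genes. The stretches of a gene switched on, TNFRSF8, and of the switched-off genes XIRP1, SPP1 and IL1B are shown from 250 bases before the start to 30 after, 5′ to 3′ on the gene's strand, with motif matches in capitals.
TNFRSF8, chr1:12063053-12063332, plus strand, AP-1 and E-box in capitals: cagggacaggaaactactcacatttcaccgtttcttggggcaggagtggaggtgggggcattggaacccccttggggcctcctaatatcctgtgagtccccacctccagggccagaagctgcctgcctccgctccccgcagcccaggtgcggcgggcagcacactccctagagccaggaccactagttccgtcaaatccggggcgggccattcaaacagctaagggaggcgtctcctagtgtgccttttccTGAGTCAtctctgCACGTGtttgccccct
XIRP1, chr3:39192566-39192845, minus strand, AP-1 in capitals: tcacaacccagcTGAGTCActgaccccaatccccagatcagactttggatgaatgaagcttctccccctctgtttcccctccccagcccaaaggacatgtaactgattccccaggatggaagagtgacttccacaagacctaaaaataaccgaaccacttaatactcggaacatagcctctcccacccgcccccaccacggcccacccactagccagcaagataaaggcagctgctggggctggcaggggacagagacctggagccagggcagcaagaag
SPP1, chr4:87975464-87975743, plus strand, RUNX in capitals: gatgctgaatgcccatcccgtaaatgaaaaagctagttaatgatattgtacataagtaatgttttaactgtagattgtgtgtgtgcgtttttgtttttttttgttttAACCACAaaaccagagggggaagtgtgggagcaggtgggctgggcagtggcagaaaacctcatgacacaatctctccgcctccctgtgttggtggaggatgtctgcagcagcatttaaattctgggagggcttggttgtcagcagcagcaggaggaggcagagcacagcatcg
IL1B, chr2:112836750-112837029, minus strand, no match: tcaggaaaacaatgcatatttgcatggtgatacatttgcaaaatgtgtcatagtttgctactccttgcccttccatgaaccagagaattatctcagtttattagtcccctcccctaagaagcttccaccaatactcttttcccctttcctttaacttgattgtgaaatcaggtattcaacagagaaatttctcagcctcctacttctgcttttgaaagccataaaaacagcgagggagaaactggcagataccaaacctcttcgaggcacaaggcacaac
In TNFRSF8 the AP-1 match begins 1 base after the start position and the E-box 14 bases after it, whereas in XIRP1 the AP-1 match begins 238 bases before it. The AP-1 match of NLRP4 begins 24 bases after the start. A match is a description of letters, and an absent one says only that these letters are not in this window.

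Over the larger sets, the DDIT3 and ATF type motif was found in 6.08% of 329 promoters of genes that fell at least 4-fold, in 2.08% of 240 promoters of genes that rose at least 4-fold and in 1.76% of promoters of tested genes. The CRE was found in 5.47%, 1.67% and 3.26% of the same sets, EGR motifs in 2.74%, 1.67% and 1.28%, and ETS motifs in 4.26%, 0.833% and 9.03%. AP-1 motifs were found in 4.56% and 6.25% of promoters of genes that fell and rose, against 3.02% of promoters of tested genes. The other motifs were no more frequent in genes that fell than in tested genes. In genes that fell, genes that rose and tested genes, the E-box was found in 9.42%, 8.75% and 10.3%. Forkhead motifs were found in 1.52%, 2.5% and 2.21%, and RUNX motifs in 2.43%, 2.92% and 3.03%. Among 38 named genes that fell at least 4-fold, 22 had a promoter in the table, 3 of them with the DDIT3 and ATF type motif and 1 with a CRE. These were ATF3, TREM1, ITGB5 and SLC31A1, whose levels are given above, and 3 of the stretches (of TREM1, ITGB5 and SLC31A1) are shown with the match in capitals as examples of genes at the membrane.
TREM1, chr6:41286766-41286825, minus strand: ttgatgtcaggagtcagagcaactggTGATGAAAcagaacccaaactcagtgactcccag
ITGB5, chr3:124901576-124901635, minus strand: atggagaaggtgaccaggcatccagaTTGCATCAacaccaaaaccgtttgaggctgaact
SLC31A1, chr9:113221426-113221485, plus strand: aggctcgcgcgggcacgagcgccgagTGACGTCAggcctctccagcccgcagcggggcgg
The match begins 117 bases before the start in TREM1, 191 in ITGB5 and 92 in SLC31A1. Whether a factor binds these letters was not tested.

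Leaving out AC220 replicate 1 kept most calls. Of the 971 class members called with all libraries, 882 kept their direction, 89 lost the call, 42 others gained one and none was called in the opposite direction. Over all 12392 genes 6644 calls were kept, 584 were lost and 422 gained, again with none opposite. Of the 584 lost, 356 had been higher and 228 lower, and 89 had changed at least 2-fold. On the log2 scale of CPM plus 0.5, 136 genes of replicate 1 stood at least 1 from the mean of the other AC220 libraries, against 135 for replicate 2 and 118 for replicate 3.

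The class members whose call changed with the widest gap of that library were MYC, IL15RA, KCNQ5, IL20RB and ADAM28. MYC, the growth-promoting bHLH factor, was at 37.8, 39.7 and 52.3 CPM under DMSO and at 35.9, 16.6 and 15.7 CPM under AC220. AC220 replicate 1 thus lay close to the DMSO libraries. With all libraries its log2 fold change of -0.91 (SE 0.371) had an adjusted p of 0.0645, and without replicate 1 the value was -1.42 (adjusted p = 0.00808). IL15RA, a chain of the interleukin-15 receptor, had 3.596, 6.54 and 5.72 CPM and then 4.25, 1.95 and 1.36 CPM, so that its groups overlapped through replicate 1 (adjusted p = 0.0506, and 0.00185 without it). KCNQ5, a voltage-gated potassium channel, had 0 CPM in replicate 1 and 0.745 and 0.727 CPM in the others (adjusted p = 0.141, and 0.00941 without it). IL20RB, an interleukin-20 receptor chain, and ADAM28, a membrane protease, lost their calls without replicate 1 (adjusted p = 0.0141 and 0.0169, and 0.102 and 0.388 without it). The log2 fold change of ADAM28 went from 2.27 to 1.08 without replicate 1, and that of IL20RB from -1.57 to -2.49 without AC220 replicate 3.

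**Figure D4:**
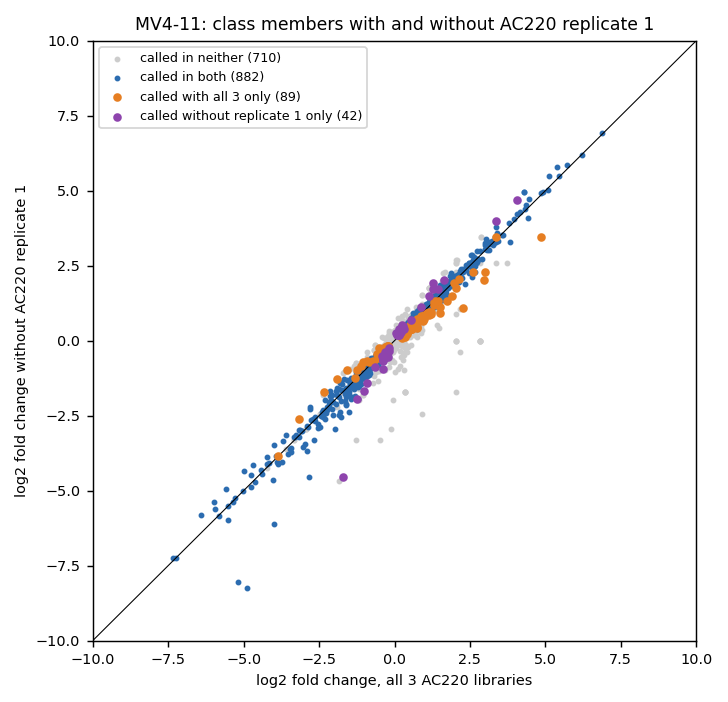
Log2 fold change (AC220 over DMSO, MV4-11) of the 1723 tested class members with all libraries (x axis) and without AC220 replicate 1 (y axis); the line marks equal values. Blue points are called in both fits (882), orange only with all libraries (89), purple only without replicate 1 (42), and light grey in neither (710).

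OCI-AML3 shows what the same exposure did in another line, without the FLT3 duplication. The lines also differ in the MLL fusion and the mutated NPM1, and what lies behind a difference was not tested. The response differed between the lines, by edgeR's quasi-likelihood test of the difference, in 46.7% of all tested genes. Among genes called in MV4-11 it differed in 5287 of 7228 (73.1%), and each class lay below that share: 267 of 388 transcription factors (68.8%), 198 of 295 surface proteins (67.1%), 117 of 161 secreted factors (72.7%), 53 of 79 ion channels (67.1%) and 33 of 48 ion transporters (68.8%). Leaving out genes named only as switched, 58 named genes reached at least 1 CPM in OCI-AML3 in either group. Of these, SLC12A8, KCNQ5 and IL20RB did not pass the test of the difference. Named genes were chosen for their change in MV4-11, so a difference from OCI-AML3 was largely set by that choice.

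IL1B was called in both lines in opposite directions. In OCI-AML3 it went from 15.8 to 24.4 CPM (means of 3 libraries, log2 fold change 0.63, adjusted p = 0.0176), against a log2 fold change of -5.999 in MV4-11 (-5.37 without AC220 replicate 1, -6.92 without AC220 replicate 2), and the difference was -6.63 (adjusted p = 2.18e-13). ETS2 rose in both lines, by 0.33 on the log2 scale in OCI-AML3 (adjusted p = 0.018) and by 2.01 in MV4-11, and the difference was 1.68 (adjusted p = 8.27e-14). For EGR1 the OCI-AML3 means were 54.3 and 46.2 CPM (adjusted p = 0.455), for BATF3 65.4 and 54.7 CPM (adjusted p = 0.171), for ADM2 29.96 and 27.7 CPM (adjusted p = 0.581) and for TNF 22.6 and 25.6 CPM (adjusted p = 0.437). Each of these genes differed between the lines, by -4.01, -5.70, -7.23 and -4.94. ATP2B3, scarcer in OCI-AML3 at 0.383 and 0.0772 CPM, fell in MV4-11 and had a log2 fold change of -2.18 in OCI-AML3 (adjusted p = 0.159), and the difference of -0.80 did not pass the test (adjusted p = 0.680). IGF1, CD84 and LGALS2 were below 0.4 CPM in OCI-AML3 in both groups.

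**Figure D5:**
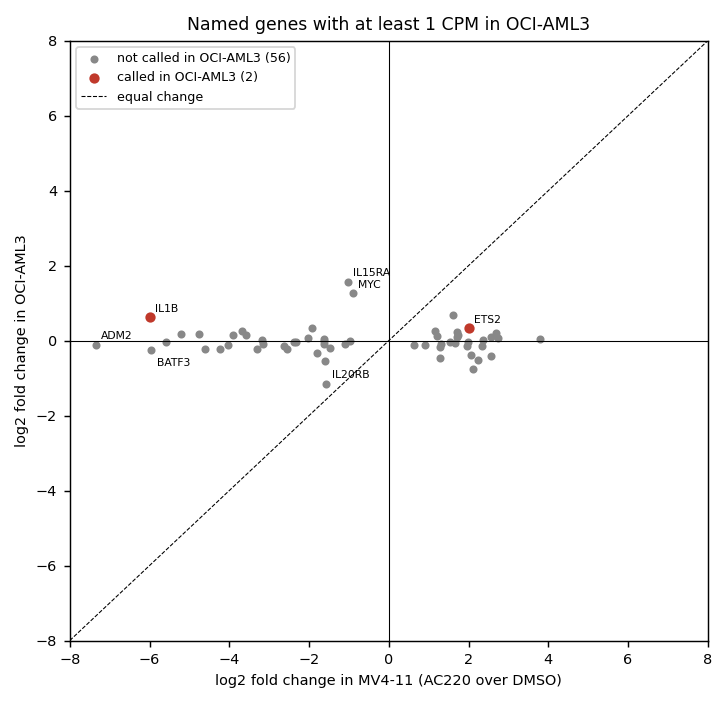
Log2 fold change (AC220 over DMSO) in MV4-11 (x axis) and in OCI-AML3 (y axis) of 58 named genes. They had at least 1 CPM in OCI-AML3, and genes named only as switched were left out. Red points, IL1B and ETS2, are called in OCI-AML3, and the dashed line marks equal change. Values in OCI-AML3 reach at most 1.58 in size, and IL1B lies in the quadrant of opposite change.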

How the data were processed

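The authors deposited whole-number counts per gene symbol for 12 libraries of total RNA (QuantSeq 3′ mRNA kit, per the labels' protocols), and normalised log2 values of 11075 genes, which served only as an alternative input. The log2 table is the deposited output of voom and limma, per the file headers. The submitters' processing notes name the tools limma 3.42.2, featureCounts, Subread 2.0.0, HISAT2 2.0.4 and cutadapt 1.9.1 and the genome build hg19, with no order or role. The annotation, the strand setting and the handling of reads with several positions are not given in the sources used here, so overlapping, antisense and near-identical genes may share reads, and 3′ reads can miss other transcript ends.

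Of 19505 rows of counts 1 had no symbol (0.00343% to 0.00503% of a library) and was left out. Groups were taken from the labels, 3 libraries each. filterByExpr on the 4 groups left 12392 genes, scaled by TMM. Contrasts were tested with edgeR 4.0.16 in R 4.3.3, by quasi-likelihood F tests with robust estimation, in a fit of all 12 libraries with 8 residual degrees of freedom and Benjamini-Hochberg adjustment at 0.05. The script was tested on simulated counts. Ratios with 1 to 3 counts in a group carry exact 95% counting intervals, and bounds take 3 counts over the group; these cover counting error only, because molecular identifiers that would mark PCR copies are not mentioned in the sources used here. Other settings tried were no filter, median-ratio size factors, DESeq2 1.42.0, limma-voom (limma 3.58.1), limma on the deposited values, the 6 MV4-11 libraries alone, a replicate block and leaving out each of the 12 libraries.

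Classes were built from symbols. Members, lists and the rule for named genes were chosen with earlier results of these data known, and a few symbol patterns were corrected after the files were seen. Named genes are, per class, up to 6 in each direction with the largest change among those called, with at least 20 counts on average where the gene was higher, no overlap between groups and a call without AC220 replicate 1. They also include the called member of each family with the smallest adjusted p, up to 10 switched genes in each direction, and up to 5 class members whose call changed without that library.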

Additional observations from a re-analysis of the deposited data

Results flagged for a closer look

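The AC220 response differed between MV4-11 and OCI-AML3, by the test of the difference in edgeR, in 5792 of 12392 genes. Among genes called in MV4-11 this held for 5287 of 7228 (73.1%). Each class lay below that share, with 267 of 388 transcription factors, 198 of 295 surface proteins, 117 of 161 secreted factors, 53 of 79 ion channels and 33 of 48 ion transporters. Of the named genes, IL1B and ETS2 were called in both lines and differed between them: the log2 fold change in MV4-11 minus that in OCI-AML3 was -6.63 for IL1B, which fell in the first line and rose in the second, and 1.68 for ETS2, which rose in both. Single values were not checked for outliers by Dixon's test, which was not run on groups of 3. What lies behind the differences was not tested.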

How the results depend on the processing

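The count of called genes was 7228 and lay between 6587 (limma on the deposited log2 values, which hold 11075 genes) and 7548 (no filter on low counts) under the other tools, scalings and filters, and between 6619 and 7394 when 1 library was left out. Class counts stayed within 1.5 times of their value under each of these alternatives, and when 1 library was left out they ran from 337 to 395 for transcription factors, 277 to 305 for surface proteins, 153 to 168 for secreted factors, 77 to 87 for ion channels and 44 to 51 for ion transporters. The difference between the lines was called in 5308 to 6130 genes when 1 library was left out. With the 6 MV4-11 libraries alone the median of all genes moved by -0.06 on the log2 scale and 48.7% of the calls were higher, against 53.9% with all libraries. The other scalings and tools moved it by at most 0.02. Of 2103 recomputed log2 fold changes of 112 named genes, 2084 kept direction and side of the threshold, none changed sign, and the rest belonged to MYC, IL15RA, KCNQ5, IL20RB and ADAM28. MYC was called by DESeq2 (adjusted p = 0.0268), limma-voom (0.0466) and limma on the deposited values (0.0380), and IL15RA by 11 alternatives (adjusted p from 0.00185 to 0.0453). ADAM28 also lost its call without DMSO replicate 1 (adjusted p = 0.0666).

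Counts of switched genes depended on the thresholds: with near 0 set at 10 counts 41 genes were switched on and 73 off, and with 20 counts required in each library of the other group 2 and 18. When 1 MV4-11 library was left out (at most 2 counts over the libraries left), 9 to 17 were switched on and 28 to 35 off; without AC220 replicate 2 it was 17 on, and without DMSO replicate 1 it was 15. Scarce genes are limited by depth, since 3 counts are up to 0.279 CPM. Replicate numbers did not pair the MV4-11 libraries: deviations from the group means of same-numbered AC220 and DMSO libraries had correlations across genes of -0.17, -0.08 and -0.11. A fit with the replicate number as a block called 7208 genes, with 387 transcription factors, 291 surface proteins, 161 secreted factors, 78 ion channels and 47 ion transporters, and 5777 genes for the difference between the lines.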

Other observations

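OCSTAMP, a membrane protein of osteoclast fusion that belongs to none of the classes and missed the switched-off threshold by 1 count, was at 58.5, 66.5 and 62.3 CPM in the DMSO libraries and at 0.0760, 0.0931 and 0.182 CPM in the AC220 libraries. It was 534-fold lower after AC220 (log2 fold change -8.98, SE 0.249, adjusted p = 2.17e-21 by edgeR's quasi-likelihood test), a larger fold than that of any named gene of the classes with counts in both groups. In OCI-AML3 it had no counts under DMSO and 0.0301 CPM under AC220. The gene was chosen after its values were seen.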
